A study of Sus scrofa domesticus with 6 samples.

Results

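Semaphorins, ephrins, Slits and netrins are families of cell guidance cues that were first studied in growing axons. Each family acts through receptors of its own. Semaphorins bind plexins, the secreted class 3 members mostly with neuropilins as co-receptors, ephrins bind Eph receptor tyrosine kinases, Slits bind Robo receptors, and netrins bind DCC, neogenin and UNC5 receptors. The same cues steer vessel sprouts, set apart arteries and veins, and pass between osteoblasts and osteoclasts in bone. The genes of these families were taken from the deposited table by their gene names. The names matched 56 of 25322 gene rows, 31 of them ligands and 25 receptors, and no name occurred in more than 1 row.

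The levels come from the mandibular condyle, which carries the jaw joint and a growth cartilage, of miniature pig embryos at 45 and 85 days. Each age has 3 RNA sequencing libraries. No genotype or added agent sets the ages apart in the labels, which name the tissue of all 6 libraries as cartilage and its cells as chondrocytes and osteocytes. The 6 carry the same treatment label, osteogenesis of cartilage. No label states whether each library had its own animal, and the p-values therefore cover only how far these 6 libraries spread. Levels of a gene across libraries are given as CPM, counts scaled to a common library total that was adjusted by edgeR's TMM normalization, and means as mean ± SD with n = 3 libraries per age. Fold changes are day 85 over day 45. A gene was called when its Benjamini-Hochberg adjusted p over all tested genes, from edgeR's quasi-likelihood test, was under 0.05. Levels of different genes are compared as deposited FPKM, which divides counts by gene length and library total. Marker sums, and members as a percentage of them, are in CPM, which is not divided by gene length. In bulk tissue, fewer cells of a type and less RNA per cell cannot be told apart.

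The libraries held 12546729 to 16559616 counts, and the guidance genes took 0.281% to 0.397% of them. Day 85 replicate 2 stood apart from the other day 85 libraries, with a Spearman's rho of 0.931 and 0.938 to replicates 1 and 3 across tested genes, against 0.980 between those. Marker genes summed in CPM showed what else differed. Of 11 listed chondrocyte markers, 9 matched a row and summed to 13148 to 16154 CPM at day 45 but to 1376, 5209 and 3043 CPM at day 85, with COL2A1, the main collagen of cartilage, at 28.8, 1074 and 50.6 CPM there. Skeletal muscle markers, 6 of 10 in the table, summed to 1347 to 3300 CPM at day 45 and to 23675, 1879 and 20218 CPM in the day 85 libraries. Osteoclast markers, 7 of 8 in the table, stood at 285 to 1286 CPM and then at 1863, 13353 and 2287 CPM, and Schwann cell and glia markers, 6 of 8, at 103 to 221 CPM and then at 152, 2226 and 144 CPM. None of these 4 lists had a marker at 0 in all libraries of an age.

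By deposited FPKM averaged over the 6 libraries, 26 of the 56 guidance genes stood at 10 or more, 22 between 1 and 10, and 8 under 1. The highest were PLXND1 at 62.8, SEMA3B at 60.7, EFNA1 at 47.4, SLIT3 at 47.3, NEO1 at 41.0, NRP2 at 39.7 and UNC5B at 36.1 FPKM. The most abundant Eph receptor, EPHA2, stood at 22.6 FPKM. NTN5, a minor netrin, and UNC5D, a netrin receptor, had 2 to 6 and 3 to 13 counts per library, did not pass the filter on low counts and were not tested. The other 54 were tested.

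Of these 54 genes, 7 rose from day 45 to day 85 and 3 fell. The 10 calls are 18.5% of the members tested, beside 6.56% of all 15022 tested genes, of which 3.9% were called higher and 2.66% lower. The risers were the receptors ROBO4 and PLXND1 and the ligands EFNB2, EFNA1, SEMA5A, SEMA6D and NTN4. SEMA3E, NTNG1 and UNC5C fell. Before adjustment, 10 had p under 0.05 with a higher level and 14 with a lower one, beside 15.8% and 13.3% of all genes and 29.1% in either direction. The log2 fold change was above 0 in 33 members, and in 51.8% of all genes. The median log2 fold change was 0.12 over the members and 0.02 over all tested genes. In 25 members (46.3%) the libraries of one age lay wholly above those of the other, beside 35.0% of all tested genes, and these were 10 with day 85 above and 15 with day 45 above, beside 17.4% and 17.6% of all genes. With library totals alone as the scaling, 7 members were higher and 5 lower (6.89% of all genes called), and the share of rises among all calls was 42.2% instead of 59.4%.

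**Figure D1:**
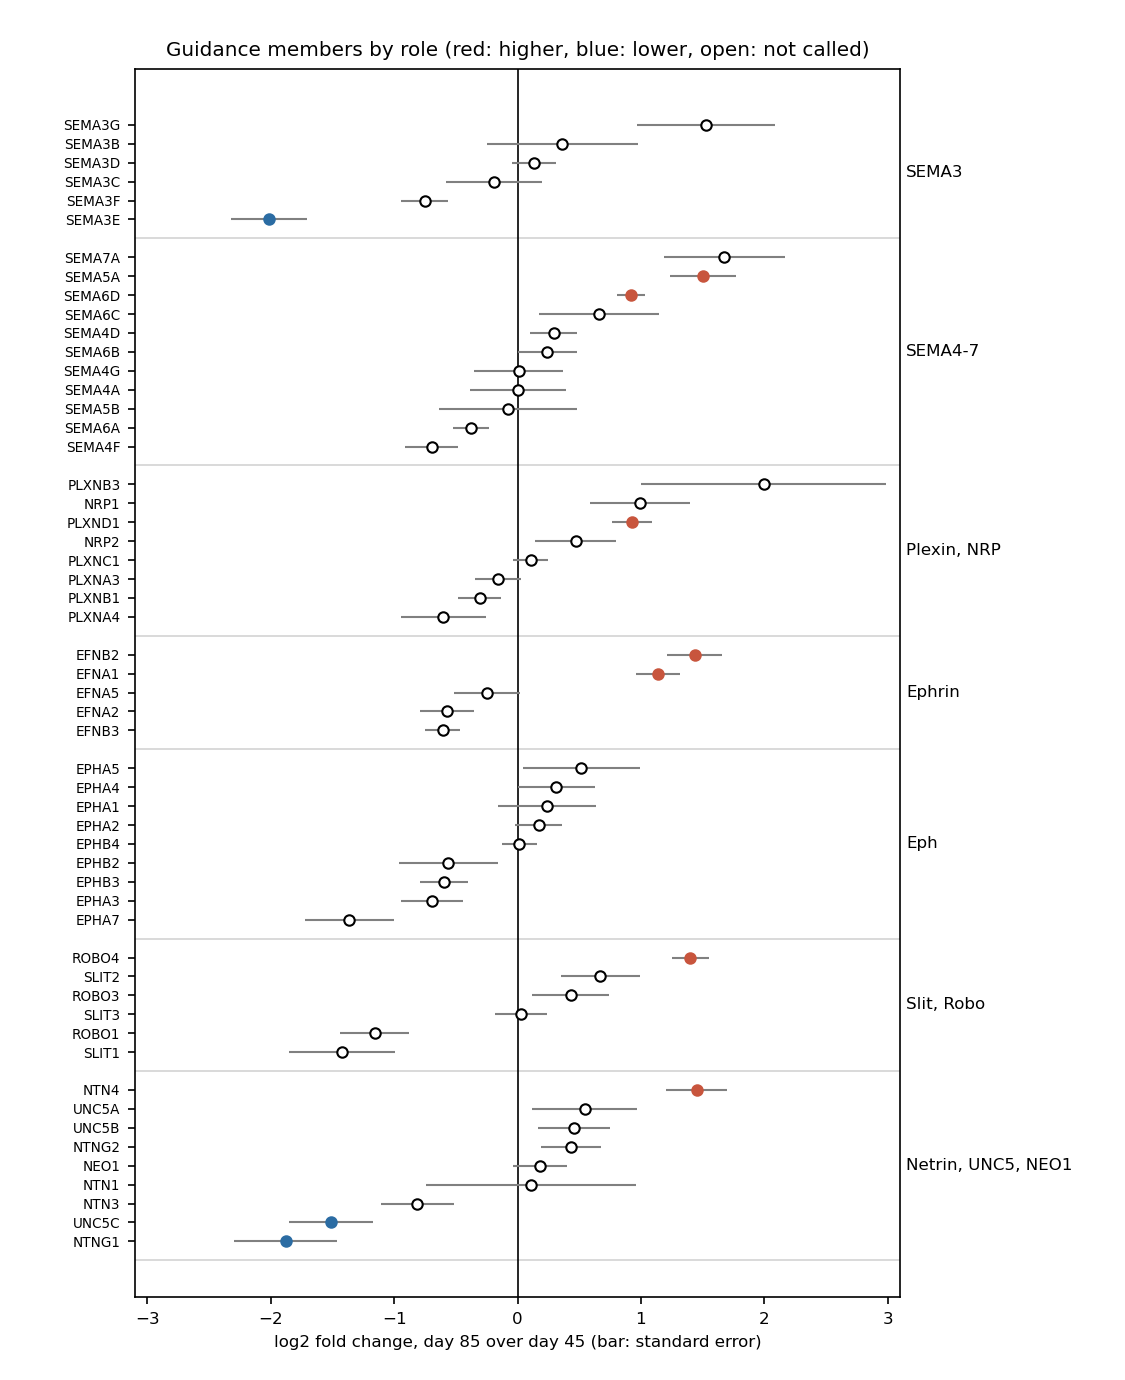
Log2 fold change of day 85 over day 45 (x axis) with its standard error for the 54 tested guidance genes, grouped by role (y axis), with red points for the 7 called higher, blue points for the 3 called lower and open points for the others. The called genes lie in 6 of the 7 role groups, and no Eph receptor is called.

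Leaving out single libraries changed which members passed. All 10 held without day 85 replicate 2, where 9 members were called higher and 9 lower, beside 22.3% of all genes. Without day 85 replicate 3, ROBO4 and EFNA1 kept their calls and no other member did, beside 0.776% of all genes. Without day 85 replicate 1 (0.105% of all genes called) or day 45 replicate 1 (0.0262%), 2 (0.0%) or 3 (0.13%), 0 members passed in edgeR. In those 4 fits 8 to 13 members had an unadjusted p under 0.05 with a higher level and 8 to 13 with a lower one. With all 6 libraries these counts were 10 and 14, beside 15.8% and 13.3% of all genes. For the 4 fits the shares over all genes are not given, so their counts do not set the members apart from other genes. DESeq2 on all 6 libraries called 9 members higher and 13 lower, beside 23.3% of all genes with an adjusted p. For the further settings given at the end, the share of all genes called was 6.99% with RLE factors, 6.76% with upper quartiles, 4.86% with no filter, 6.94% with a filter of 1 CPM in 3 libraries, 6.57% with rows of one name summed, 4.54% with the replicate number as a block, 5.78% with limma-voom and 6.89% with limma on FPKM.

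Among Slits and Robos, the endothelial receptor rose and the broadly made one had the opposite sign. ROBO4, a Robo receptor largely restricted to endothelium, where it is known to stabilise vessels, lies on chromosome 9 from base 57598963 to 57613198. This and the other positions follow the deposited table, for which no genome build was stated in the labels. ROBO4 stood at 65.3, 61.0 and 64.8 CPM on day 45 and then at 199, 142 and 165 CPM on day 85. Its lowest day 85 library was thus more than double every day 45 library. ROBO4 rose 2.64-fold, the means being 63.7 ± 2.32 and 168 ± 28.8 CPM (log2 fold change 1.40, SE 0.15, adjusted p = 0.0160 by edgeR). Without day 85 replicate 2 the adjusted p was 0.00145, without day 85 replicate 3 it was 0.0485, and without the other libraries it went up to 0.109. ROBO1, the receptor through which Slits repel axons and other migrating cells, stood at 202, 202 and 222 CPM and then at 55.1, 105 and 120.1 CPM. The ages did not overlap, and day 85 replicate 1 was lowest. Its log2 fold change was -1.16 with an SE of 0.28, which missed the threshold (adjusted p = 0.0569), and leaving out day 85 replicate 2 brought it past (adjusted p = 0.0411). The other leave-one-out fits in edgeR gave 0.0593 to 0.170. With all 6 libraries ROBO1 was called lower under total-count scaling (adjusted p = 0.0470), by limma on FPKM (0.0445) and by DESeq2 (0.000165). It was not called with RLE or upper-quartile scaling, by limma-voom (0.0577) or by edgeR with the replicate block (0.0572). The ratio of ROBO4 to ROBO1 FPKM was 0.391, 0.366 and 0.353 at day 45 and 4.37, 1.63 and 1.66 at day 85. ROBO4 thus went from the lower to the higher of the pair on the FPKM scale in all 3 day 85 libraries.

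The Slit genes did not pass. SLIT3, the most abundant Slit and a cue made in bone, stood at 206 ± 31.1 and 209.8 ± 51.7 CPM (log2 fold change 0.03, SE 0.21), a value whose sign turned with the scaling and with single libraries. SLIT2, the other widely made Slit, stood at 52.5 ± 25.1 and 83.6 ± 8.88 CPM, with day 45 replicate 2 inside the day 85 range (adjusted p = 0.219). SLIT1, known mainly from the nervous system, was low, at 8.33, 4.04 and 9.03 CPM and then at 3.56, 1.47 and 2.97 CPM. These ages did not overlap (log2 fold change -1.42, SE 0.43, adjusted p = 0.0897). ROBO3, a receptor of crossing axons, stayed at 1.58 to 2.87 CPM in all 6 libraries. In all, 1 of 6 Slit and Robo genes was called.

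Plexin D1 rose, while its direct ligand SEMA3E fell. PLXND1 was the most abundant member by mean FPKM at day 85, with 81.5, but at day 45 its 44.1 lay under SEMA3B at 54.3 and SLIT3 at 47.5. The gene, which encodes a semaphorin receptor of vessel sprouts, lies on chromosome 13 at 76179149 to 76229571. It stood at 298, 271 and 368 CPM on day 45 and then at 620.1, 639 and 527 CPM on day 85, with no overlap. It rose 1.91-fold (log2 fold change 0.93, SE 0.16, adjusted p = 0.0313 by edgeR), and the adjusted p was 0.0160 without day 85 replicate 2 and 0.0576 to 0.151 in the other leave-one-out fits. SEMA3E, which binds plexin D1 without a neuropilin and repels endothelial cells, lies on chromosome 9 at 107013095 to 107133260. It stood at 13.1, 19.0 and 9.03 CPM and then at 3.32, 3.87 and 2.97 CPM. Every day 85 library was thus under the lowest day 45 one, and the day 85 values were close together. SEMA3E fell 4.04-fold (log2 fold change -2.01, SE 0.31, adjusted p = 0.0246), with an adjusted p of 0.00873 without day 85 replicate 2 and 0.0518 to 0.113 in the other leave-one-out fits. On the FPKM scale the ratio of SEMA3E to PLXND1 was 0.0973, 0.155 and 0.0542 at day 45 and 0.0119, 0.0134 and 0.0125 at day 85. Such ratios were computed for 6 pairs. From the mean log2 ratios this one changed 7.45-fold, ROBO4 to ROBO1 6.15-fold and EFNB2 to EPHB4 2.74-fold. The others changed less, SEMA7A to PLXNC1 2.53-fold, SEMA4D to PLXNB1 1.53-fold and SEMA5A to PLXNB3 1.03-fold.

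**Figure D2:**
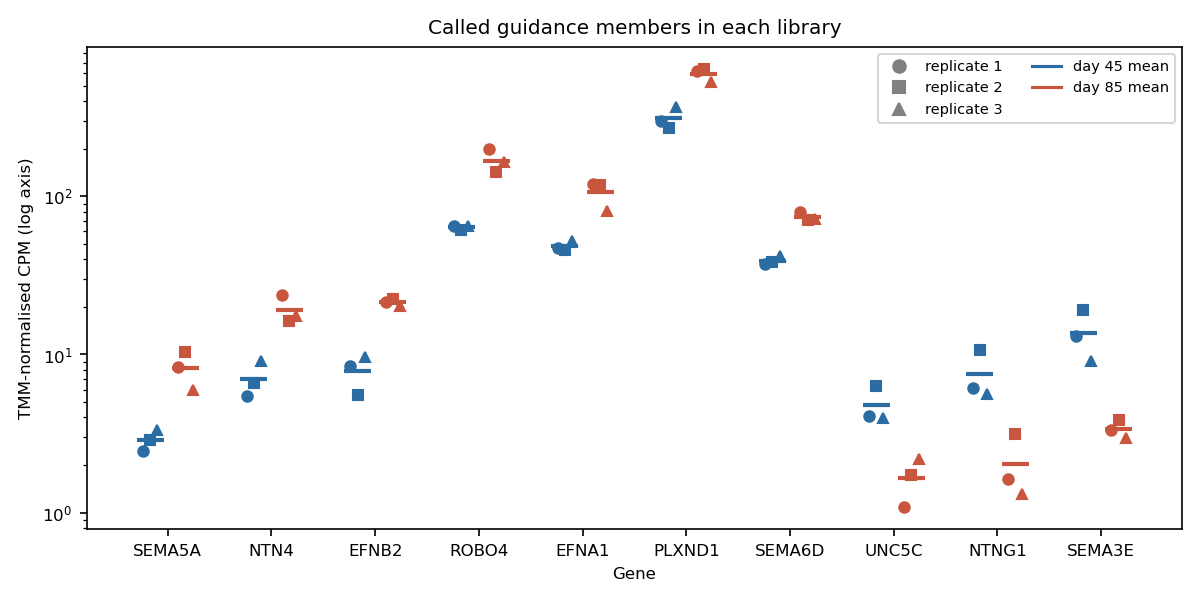
TMM-normalised CPM on a log axis (y axis) of the 10 called guidance genes (x axis) in each library, with a symbol for each replicate and a bar at the mean of each age. In every gene the 3 libraries of one age lie apart from the 3 of the other, from UNC5C at 1.08 CPM in its lowest library to PLXND1 at 639 CPM in its highest.

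Of the 8 plexin and neuropilin genes, PLXND1 was the 1 that passed. NRP1, a co-receptor for both class 3 semaphorins and VEGF, stood at 52.5, 32.7 and 102 CPM on day 45 and then at 140.1, 105 and 128 CPM on day 85. Day 45 replicate 3 nearly reached the day 85 range, and the log2 fold change of 0.99 had an SE of 0.40 (adjusted p = 0.166). NRP2, its relative in lymphatic vessels and a receptor for SEMA3F, was at 112 ± 21.2 and 155 ± 68.6 CPM (adjusted p = 0.376). PLXNB3, a plexin known as a receptor for SEMA5A, stood at 36.0, 7.93 and 23.7 CPM and then at 28.8, 214.9 and 26.0 CPM. A single library, day 85 replicate 2, thus set its log2 fold change of 1.99 (SE 1.00, adjusted p = 0.241), which was 0.27 without it. PLXNC1, the plexin that binds SEMA7A, was among the steadiest members at 16.8 to 22.0 CPM in all libraries. Its span overlaps that of CEP83, and without strand in the table reads of the pair could be mixed. PLXNA3 and PLXNB1 stood at 141 ± 25.7 and 17.8 ± 0.316 CPM at day 45 and at 126 ± 20.8 and 14.3 ± 2.72 CPM at day 85, neither past the threshold. The PLXNB1 row covers a short span, chromosome 13 at 34290453 to 34293027, and the level is that of this span.

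The other class 3 semaphorins went separate ways, and of 6 with a deposited gene name SEMA3E was the 1 called. SEMA3A, whose row carries no gene name, was also called lower (adjusted p = 0.0200 by edgeR) and is described at the end. SEMA3F, a repellent that acts through NRP2, stood at 99.4, 164 and 143 CPM and then at 81.9, 80.5 and 79.6 CPM. The ages did not overlap, and its log2 fold change was -0.75 (SE 0.19, adjusted p = 0.0625). Leaving out day 85 replicate 2 brought the adjusted p to 0.0459, and the other leave-one-out fits in edgeR gave 0.109 to 0.180. SEMA3G had the opposite sign, at 25.8, 5.91 and 30.8 CPM and then at 66.2, 49.9 and 64.6 CPM (log2 fold change 1.53, SE 0.56, adjusted p = 0.1404). SEMA3B, the most abundant class 3 member on the FPKM scale, stood at 183, 156 and 94.3 CPM on day 45 and then at 82.3, 371 and 104.5 CPM on day 85. Its value was high in day 85 replicate 2 alone, and its log2 fold change of 0.36 (SE 0.61) became -0.63 without that library, passing in neither fit. SEMA3C and SEMA3D, cues of heart and vessel development, were at 39.1 ± 5.92 and 42.1 ± 8.45 CPM at day 45 and at 34.4 ± 16.6 and 46.2 ± 5.53 CPM at day 85.

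Of 11 membrane-bound semaphorins, SEMA5A and SEMA6D rose and none fell. SEMA5A, a transmembrane semaphorin with thrombospondin repeats, lies on chromosome 16 at 78913410 to 79294356. It was low in all libraries, at 2.45, 2.89 and 3.34 CPM and then at 8.27, 10.3 and 6.0 CPM. Its counts were few, yet the ages did not overlap, and it rose 2.83-fold (log2 fold change 1.50, SE 0.27, adjusted p = 0.0324 by edgeR). The adjusted p was 0.0166 without day 85 replicate 2 and 0.0508 to 0.145 in the other leave-one-out fits. SEMA6D, a ligand of plexin A1 with a role in heart development, lies on chromosome 1 at 138044833 to 138096757. It stood at 37.5, 38.2 and 42.0 CPM and then at 79.9, 71.0 and 71.8 CPM. Both ages were tight, and SEMA6D rose 1.89-fold (log2 fold change 0.92, SE 0.11, adjusted p = 0.0181), with 0.00416 without day 85 replicate 2 and 0.0502 to 0.113 in the other leave-one-out fits. SEMA6A, a relative of SEMA6D, stood at 145 ± 8.86 and 112 ± 18.1 CPM and did not pass (log2 fold change -0.38, SE 0.15, adjusted p = 0.146).

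In SEMA7A and SEMA6C, further membrane-bound semaphorins, day 85 replicate 2 stood apart from the other day 85 libraries. SEMA7A, a lipid-anchored semaphorin that binds plexin C1 and integrins, stood at 22.5, 23.6 and 19.0 CPM and then at 46.9, 125.8 and 35.1 CPM. All day 85 libraries lay above day 45, with a wide spread at day 85, and SEMA7A did not pass (log2 fold change 1.68, SE 0.49, adjusted p = 0.0897). Without day 85 replicate 2 the log2 fold change was 0.92 and it passed (adjusted p = 0.0127), and the other leave-one-out fits gave 0.0875 to 0.236. SEMA6C, a relative of SEMA6D, went the other way in that library, at 83.9, 103 and 98.0 CPM on day 45 and then 224, 53.5 and 172 CPM. The low library is the one with the least muscle marker RNA of its age, 1879 CPM summed, and a link between the 2 was not tested. SEMA6C did not pass with all libraries (adjusted p = 0.403) and did without day 85 replicate 2 (log2 fold change 1.06, adjusted p = 0.00605). The other leave-one-out fits gave 0.507 to 0.801. SEMA4F stood at 63.5, 77.2 and 56.7 CPM and then at 29.9, 50.1 and 41.9 CPM, with no overlap (log2 fold change -0.69, SE 0.22, adjusted p = 0.0954). The adjusted p was 0.0224 without day 85 replicate 2 and 0.136 to 0.260 in the other leave-one-out fits. SEMA4D, a cue by which osteoclasts hold back osteoblasts, was at 47.3 ± 8.08 and 57.9 ± 11.0 CPM and did not pass (adjusted p = 0.346). Its relation to the osteoclast markers, which summed to 285 to 13353 CPM over the libraries, was not tested.

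In 8 of the 54 tested members (14.8%) the level in day 85 replicate 2 was more than 2-fold the mean of the other day 85 libraries, and in 4 (7.41%) it was under 0.5 of it. Over all tested genes these shares were 6.43% and 7.66%. The 8 were PLXNB3 (7.84-fold), SEMA3B (3.97-fold), SEMA7A (3.07-fold), SEMA4G, NTNG1, SEMA4A, UNC5B and EPHB2, and the 4 were SEMA6C, SEMA3C, SLIT1 and EPHA7. UNC5B and EPHB2 lay at the cut, at 2.00-fold each. Few counts in the day 85 libraries stood behind EPHB2 (7, 22 and 14), SEMA4A (24, 51 and 21) and NTNG1 (21, 47 and 20). The same held for SLIT1 (46, 22 and 45) among the 4. Summed osteoclast, Schwann cell and glia, macrophage, erythroid, osteoblast, arterial and epithelium markers were also highest in day 85 replicate 2. Among the day 85 libraries, chondrocyte and neuron sums were highest there too. Muscle, endothelial, and pericyte and smooth muscle sums were lowest there among the day 85 libraries. Their part in these values was not tested.

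**Figure D3:**
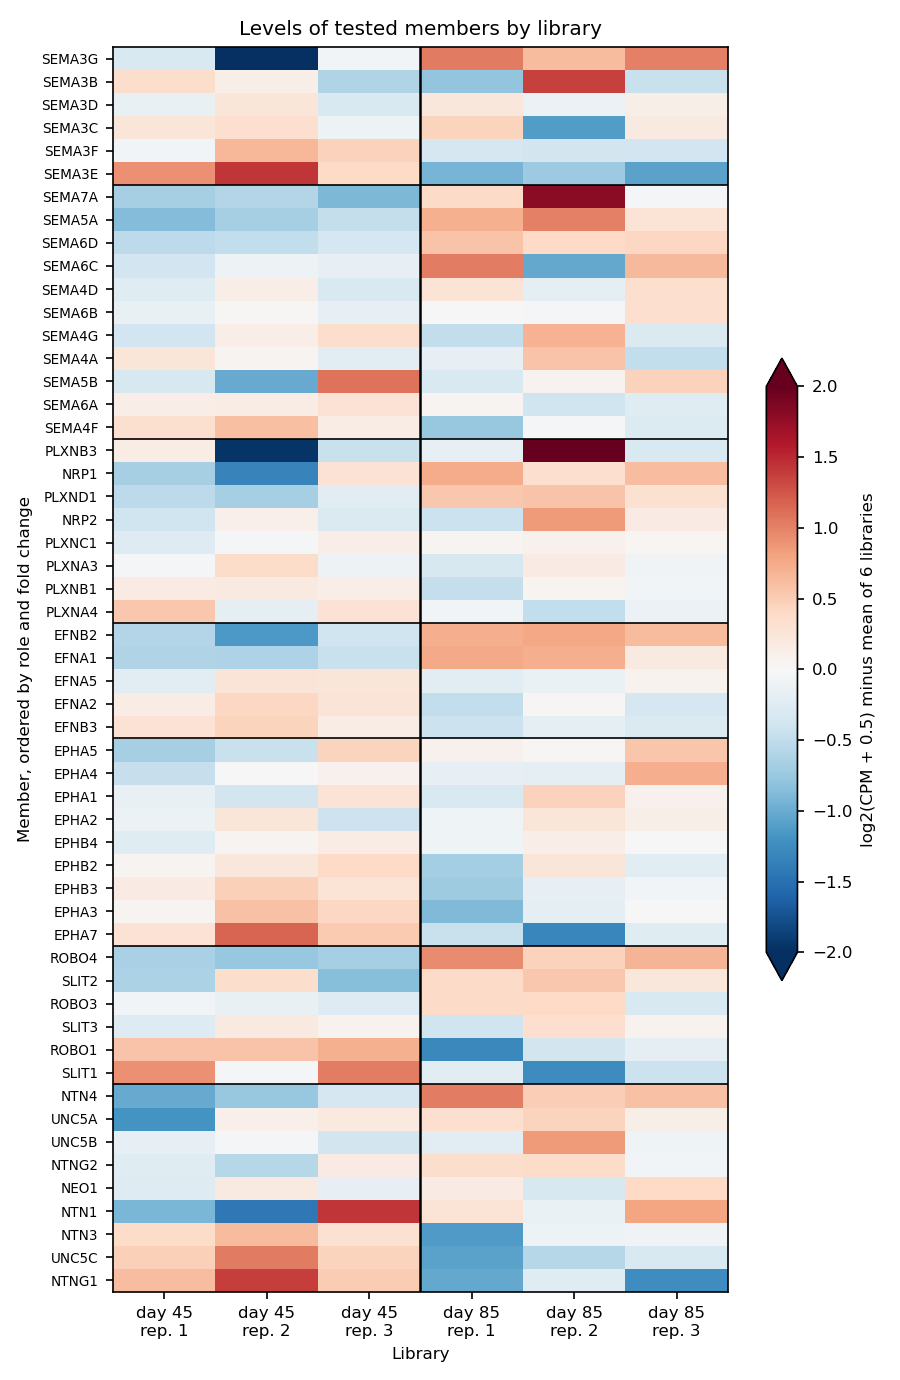
Level of each tested guidance gene (rows, grouped by role) in each library (columns), as log2 of CPM plus 0.5 minus the gene's mean over the 6 libraries, with red above and blue below that mean. Day 85 replicate 2 differs from the other day 85 libraries in PLXNB3, SEMA3B and SEMA7A, where it is higher, and in SEMA6C and SEMA3C, where it is lower.

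Among 5 ephrins, EFNB2 and EFNA1 rose. EFNB2, the transmembrane ephrin that marks arteries, lies on chromosome 11 at 81565082 to 81610206. It stood at 8.45, 5.55 and 9.62 CPM on day 45 and then at 21.5, 22.3 and 20.2 CPM on day 85. The day 85 libraries were close together and all more than double the highest day 45 library. EFNB2 rose 2.70-fold, the means being 7.87 ± 2.09 and 21.3 ± 1.09 CPM (log2 fold change 1.44, SE 0.22, adjusted p = 0.0247 by edgeR), with 0.0102 without day 85 replicate 2 and 0.0534 to 0.124 in the other leave-one-out fits. EFNA1, a lipid-anchored ephrin that endothelial cells make on stimulation with TNF, lies on chromosome 4 at 103449082 to 103455256. It was the most abundant ephrin, at 46.8, 46.1 and 51.9 CPM and then at 120.2, 118 and 80.7 CPM. Day 85 replicate 3 was the lowest of its age and still above all of day 45. EFNA1 rose 2.20-fold (log2 fold change 1.14, SE 0.18, adjusted p = 0.0251), with 0.00948 without day 85 replicate 2, 0.0424 without day 85 replicate 3 and up to 0.129 without the other libraries.

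Other ephrins had the opposite sign without passing. EFNB3, a transmembrane ephrin of the nervous system, stood at 28.1, 31.4 and 25.4 CPM and then at 16.9, 20.2 and 18.7 CPM. The ages did not overlap, and its adjusted p of 0.0532 lay just outside the threshold (log2 fold change -0.61, SE 0.14). It was 0.0235 without day 85 replicate 2 and 0.0852 to 0.172 in the other leave-one-out fits. EFNB3 was called lower with library totals, RLE factors or upper quartiles as the scaling, by limma on FPKM and by DESeq2. It was not called by limma-voom (adjusted p = 0.0584) or by edgeR with the replicate block (0.0697). EFNA2 stood at 7.18 ± 0.699 and 4.83 ± 0.987 CPM (log2 fold change -0.57, SE 0.22, adjusted p = 0.145). The adjusted p was 0.0498 without day 85 replicate 2 and 0.232 to 0.342 in the other leave-one-out fits. EFNA5 was at 2.16 to 3.25 CPM in all libraries.

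None of 9 Eph receptors passed in edgeR, where 0 had an unadjusted p under 0.05 with a higher level and 3, EPHA3, EPHA7 and EPHB3, with a lower one. DESeq2 called these 3 lower and none higher. EPHB4, the receptor of EFNB2 that marks veins, stood at 97.0, 119 and 127 CPM and then at 107, 126 and 114 CPM. These ranges lay almost on each other (log2 fold change 0.02, SE 0.14). The ratio of EFNB2 to EPHB4 FPKM went from 0.347, 0.186 and 0.302 to 0.797, 0.707 and 0.707, so the receptor was the more abundant of the pair on the FPKM scale in all 6 libraries. EPHA2, the most abundant Eph receptor, was at 91.5 ± 20.8 and 103 ± 11.5 CPM (adjusted p = 0.575). EPHA7, a receptor for A-type ephrins, stood at 12.6, 23.6 and 15.0 CPM and then at 7.42, 3.87 and 8.57 CPM. The ages did not overlap (log2 fold change -1.36, SE 0.36, adjusted p = 0.0685), and it passed without day 85 replicate 2 (adjusted p = 0.0378). The other leave-one-out fits in edgeR gave 0.112 to 0.197. EPHA3, which binds ephrin A5, and EPHB3 were also apart between the ages, with log2 fold changes of -0.69 and -0.60, SEs of 0.25 and 0.19 and adjusted p of 0.133 and 0.104.

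Netrin genes split, with NTN4 rising and NTNG1 and UNC5C falling among 9 tested. NTN4, a netrin of basement membranes that binds laminin, lies on chromosome 5 at 91873151 to 91985573. It stood at 5.45, 6.56 and 9.03 CPM on day 45 and then at 23.7, 16.3 and 17.5 CPM on day 85. The ages were well apart, and NTN4 rose 2.73-fold (log2 fold change 1.45, SE 0.25, adjusted p = 0.0291 by edgeR), with 0.00873 without day 85 replicate 2 and 0.0547 to 0.139 in the other leave-one-out fits. NTNG1, a lipid-anchored netrin of neurons that does not act through the classical netrin receptors, lies on chromosome 4 at 123051576 to 123210247. It stood at 6.12, 10.7 and 5.63 CPM and then at 1.62, 3.13 and 1.32 CPM. NTNG1 fell 3.68-fold (log2 fold change -1.88, SE 0.42, adjusted p = 0.0482), close to the threshold, with 0.00865 without day 85 replicate 2 and 0.0888 to 0.147 in the other leave-one-out fits. UNC5C, a netrin receptor for repulsion, lies on chromosome 8 at 133775432 to 133794041. At 4.10, 6.28 and 3.99 CPM and then 1.08, 1.73 and 2.18 CPM it was low in all libraries. UNC5C fell 2.85-fold (log2 fold change -1.51, SE 0.34, adjusted p = 0.0491), with 0.0342 without day 85 replicate 2 and 0.0882 to 0.155 in the other leave-one-out fits. With limma-voom NTNG1 and UNC5C missed the threshold (adjusted p = 0.0523 and 0.0543), and NTNG1 did with limma on FPKM (0.0591). The UNC5C span lies inside that of BMPR1B, a BMP receptor at 2.27, 1.88 and 1.70 CPM and then 12.6, 3.07 and 6.46 CPM. The table gives no strand, so reads of the pair could be mixed, and the UNC5C values are uncertain for that reason.

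The abundant netrin receptors did not pass. NEO1, or neogenin, which binds netrins and repulsive guidance molecules, stood at 226 ± 37.4 and 257 ± 62.9 CPM (log2 fold change 0.18, SE 0.22). UNC5B, a netrin receptor of arteries and sprouting vessels, stood at 212, 229.5 and 184 CPM and then at 205, 430.5 and 224 CPM, high in day 85 replicate 2 alone, and its log2 fold change of 0.46 (SE 0.29) was 0.04 without that library. NTN3 stood at 32.0 ± 3.95 and 18.2 ± 6.79 CPM with ages apart (log2 fold change -0.81, SE 0.30, adjusted p = 0.132). NTNG2, the other netrin G, was at 9.15 ± 2.45 and 12.4 ± 1.99 CPM (adjusted p = 0.277). NTN1, the classical secreted netrin, ranged from 1.23 to 12.04 CPM at day 45 alone, and its log2 fold change of 0.11 had an SE of 0.85. Its row covers a short span, chromosome 12 at 56822669 to 56823739, and the level is that of this span.

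Markers of several cell types were higher at day 85 together with the 7 risers. Of 14 listed endothelial markers, 10 matched a row, 5 of these were called higher and none lower, none was at 0 in all libraries of an age, and their summed level ran from 401 to 652 CPM at day 45 and from 1045 to 1596 CPM at day 85. Other lists also lay apart with day 85 above. Macrophage markers, 8 of 8 in the table and 4 called higher, ran from 75.9 to 148 CPM and then from 268 to 800 CPM. Pericyte and smooth muscle markers, 7 of 8 and 2 called higher, ran from 506 to 871 CPM and then from 929 to 1247 CPM. Erythroid markers, 6 of 7 and 2 called higher, ran from 16.4 to 19.9 CPM and then from 42.1 to 188 CPM, and the osteoclast sums given above did not overlap either, with 0 called. The part of any of these lists in the 7 rises was not tested. The ratio of the mean sums was 2.47 for the endothelial list and 1.65 for pericyte and smooth muscle markers. It was 4.19 for macrophage, 5.78 for erythroid and 9.04 for osteoclast markers. The called risers rose 1.89-fold to 2.83-fold. Not every endothelial marker rose, as ERG had a log2 fold change of -0.23 (SE 0.17). As a percentage of the endothelial sum, ROBO4 stood at 13.3, 15.2 and 9.93 at day 45 and at 12.5, 13.5 and 13.9 at day 85. EFNB2 stood at 1.72, 1.39 and 1.47 and then at 1.35, 2.14 and 1.71. PLXND1 was at 60.5, 67.7 and 56.4 and then at 38.9, 61.1 and 44.5. For all 7 risers the libraries of the 2 ages overlapped on this scale, and the 3 genes that fell stayed lower at day 85 on it. The endothelial sum itself rose, and no percentage was computed for the other lists with day 85 above. Of 7 arterial markers 2 were called higher, EFNB2 itself and DLL4, an arterial Notch ligand (17.8, 14.6 and 17.9 CPM to 69.4, 53.7 and 52.1 CPM, adjusted p = 0.0155 by edgeR, 0.00189 to 0.106 on leaving out single libraries). The other 5 did not pass, with adjusted p of 0.0822 for GJA4, 0.0876 for GJA5, 0.339 for UNC5B, 0.537 for CXCL12 and 0.638 for HEY1. The arterial sums overlapped between the ages, at 514 to 812 CPM and then 797 to 1060 CPM. The percentages were computed after the calls were seen and were not tested.

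**Figure D4:**
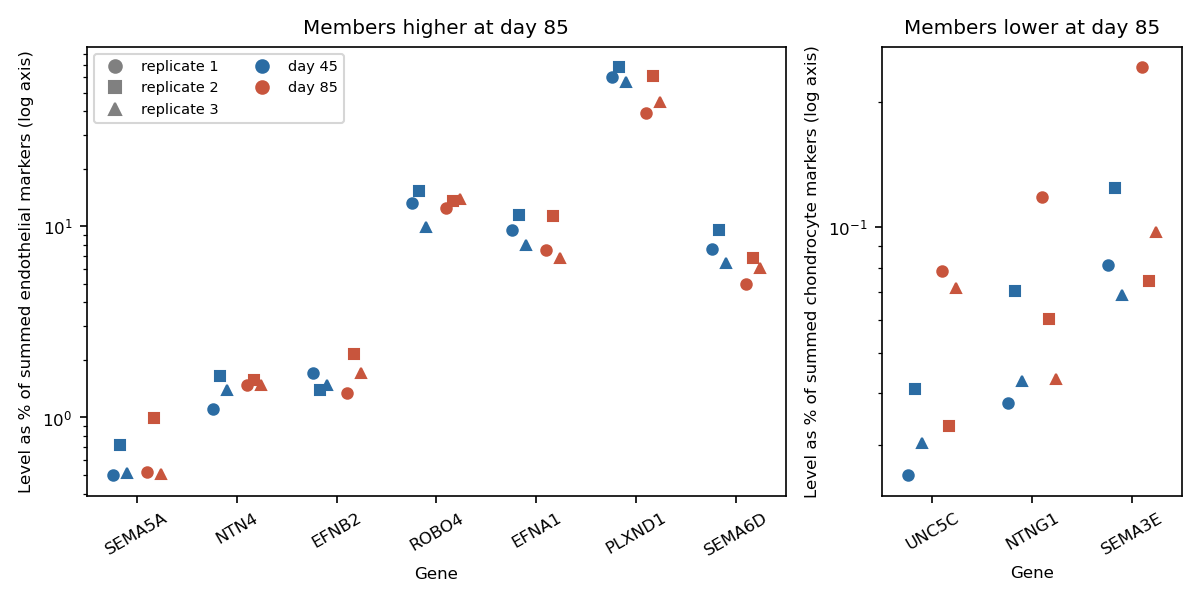
Level of the called guidance genes (x axis) as a percentage of the summed endothelial markers for the 7 that rose (left) and of the summed chondrocyte markers for the 3 that fell (right), on log axes, with a symbol for each replicate, blue for day 45 and red for day 85. Each panel uses a list that moved the same way as its genes, and the percentages were computed after the calls were seen. On these lists the 2 ages overlap in each of the 10 genes, as for ROBO4 with 9.93 to 15.2 at day 45 and 12.5 to 13.9 at day 85. With the 2 lists exchanged, the ages lie apart in all 10, so the overlap depends on the list.

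Chondrocyte, neuron and tendon markers were lower at day 85 together with the 3 genes that fell. The 9 chondrocyte markers, 3 of them called lower and none higher, had mean sums of 14873 and 3209 CPM. The neuron list had 7 of 9 markers in the table, 2 called lower and none higher, and summed to 107 to 159 CPM at day 45 and 41.9 to 70.4 CPM at day 85. Its marker ELAVL3 was at 0 in all day 85 libraries, but it had only 3, 0 and 1 counts at day 45 and was not tested. Tendon and fibrous markers, 6 of 8 in the table and 0 called, ran from 3970 to 5402 CPM and then from 2322 to 3878 CPM, with a median log2 fold change of -0.72. As a percentage of the chondrocyte sum, SEMA3E stood at 0.0811, 0.124 and 0.0687 at day 45 and at 0.242, 0.0742 and 0.0975 at day 85. NTNG1 and UNC5C overlapped between the ages on that scale too, and all 3 overlapped as a percentage of the neuron sum. On the chondrocyte and neuron scales the 7 risers lay wholly above day 45. Which cells made the transcripts that rose or fell was not tested.

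Partners and effectors of these receptors showed few calls in edgeR. Of 64 listed co-receptors, adaptors, exchange factors and cytoskeletal effectors, 51 matched a row and 50 were tested. In this list 1 rose and none fell (2.00% called, beside 6.56% of all genes). Before adjustment 6 had p under 0.05 in each direction, beside 15.8% of all genes higher and 13.3% lower. Their median log2 fold change was -0.01. DESeq2 called 5 higher and 6 lower, beside 23.3% of all genes with an adjusted p. MICAL3, an enzyme of the MICAL family, whose members oxidise actin downstream of plexins, stood at 71.4, 72.1 and 60.9 CPM and then at 125, 181 and 111 CPM. MICAL3 rose 2.04-fold (log2 fold change 1.03, SE 0.20, adjusted p = 0.0386 by edgeR), with 0.00781 without day 85 replicate 2 and 0.0596 to 0.147 in the other leave-one-out fits. GPC1, a glypican that binds Slits and the most abundant gene of the list, stood at 1400.6 ± 248 and 830.1 ± 244 CPM and did not pass (log2 fold change -0.75, SE 0.27, adjusted p = 0.123). INPPL1, the lipid phosphatase SHIP2 that binds EPHA2, was at 670.4 ± 88.4 and 589 ± 36.2 CPM (adjusted p = 0.435).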

How the data were processed

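RNA was sequenced from condyles of 45 and 85 day embryos, 3 libraries per age, after removal of ribosomal RNA, with degradation of the second cDNA strand, per the labels' protocols. The submitters' processing notes name HISAT2; read counting, strand setting, build and annotation, not given in the sources used here, remain unknown. The authors deposited 1 table of whole-number counts and FPKM values per gene, per the file headers. The titles gave each sample its age. The test was edgeR (version 4.0.16, under R 4.3.3), after filterByExpr (minimum count 10), TMM, robust quasi-likelihood fit, age as the only factor, over 15022 genes. A standard error is the log2 fold change divided by the square root of F. The test was tried on simulated data first. No pair of libraries was a duplicate (chi-square per degree of freedom at least 20.2). Alternatives included DESeq2 1.42.0, limma 3.58.1 on voom values and on log2(FPKM + 0.1), other scalings and filters, and leaving out each library.

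Members, lists and pairs were chosen with earlier results of these data known. Named are all called members, EFNB2, ROBO4 and SEMA5A, and in each of 7 role groups the 2 with the highest mean FPKM and the 2 with the smallest unadjusted p among those not called, those not tested, and of the partners the called one and the 2 most abundant. Further members were named after their values were seen, to complete a role. Sequences were not used here.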

Additional observations from a re-analysis of the deposited data

How the results depend on the processing

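The 10 called members kept their sign in every alternative run. With all 6 libraries, the same 10 were called by edgeR with RLE, upper-quartile and total-count scaling, with no filter, with a filter of 1 CPM in 3 libraries and with rows of one name summed, and by DESeq2; limma on FPKM called 9 of them, limma-voom 8, and edgeR with the replicate block 6. Leaving out single libraries gave 0 to 9 members higher and 0 to 9 lower, and over all genes 0 to 1884 higher and 0 to 1528 lower. DESeq2 called 2064 genes higher and 1770 lower (against 586 and 400) and 13 members lower (against 3). Limma-voom called 1 member lower and total-count scaling 5. Fitting the replicate number as a block gave 4 members higher and 217 genes lower. In that edgeR fit SEMA5A, NTN4, PLXND1 and UNC5C missed the threshold, with adjusted p of 0.0576, 0.0542, 0.0582 and 0.0633. Same-numbered libraries did not deviate together (correlations of 0.0128, 0.250 and 0.0404), and not every library correlated best with its own number, so the numbers were not taken as pairs. With the rows that carry no name in the table but match by symbol, 7 members were higher and 4 lower. Leaving out 1 library turned the sign of 11 of 54 tested members, none of them called (EPHA1, EPHA4, EPHB4, NTN1, PLXNC1, SEMA3B, SEMA3C, SEMA4A, SEMA4G, SEMA5B and SLIT3). Among the genes named by rule, signs turned for SLIT3, at -0.0231 with limma on FPKM, -0.0218 with total counts, -0.00104 with upper quartiles, -0.11 without day 45 replicate 1 and -0.15 without day 85 replicate 2 (up to 0.18 without other libraries), and for SEMA3B, at -0.63 without day 85 replicate 2 (up to 0.68); the cause was not tested. No scaling moved the median of all genes by more than 0.1. Members near 1 CPM rest on few counts, and NTN5 and UNC5D were too low to test.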

Other observations

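Another 9 rows of the table carry no name but have a guidance gene symbol in a separate table of Ensembl IDs and symbols, and 8 of them were tested. SEMA3A, a class 3 semaphorin that acts through NRP1 and is known to protect bone mass, stood at 39.6, 53.5 and 32.5 CPM at day 45 and at 14.8, 14.3 and 15.8 CPM at day 85. All day 85 libraries lay close together and under day 45. SEMA3A fell 2.80-fold (log2 fold change -1.48, SE 0.20, adjusted p = 0.0200 by edgeR), with 0.00735 without day 85 replicate 2 and 0.0518 to 0.110 in the other leave-one-out fits. On the FPKM scale it averaged 26.0 at day 45, beside 4.198 for SEMA3E and 37.1 for SEMA3F.

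The other 7 tested rows did not pass. PLXNA2, a plexin partner of neuropilins, stood at 130.2, 158 and 149.9 CPM and then at 178, 311 and 210.5 CPM, with ages apart (log2 fold change 0.67, SE 0.22, adjusted p = 0.107). PLXNA1, a receptor for SEMA6D, was at 44.0 ± 2.72 and 36.2 ± 9.53 CPM. SEMA4C stood at 69.8 ± 7.85 and 83.9 ± 17.8 CPM, and ROBO2, a Slit receptor, at 7.62 ± 1.34 and 7.59 ± 1.94 CPM. EPHB6, an Eph receptor without kinase activity, stood at 5.63, 6.13 and 9.94 CPM and then at 1.93, 35.6 and 1.71 CPM. It was thus high in day 85 replicate 2 alone, as PLXNB3 was, and without that library it passed as lower (log2 fold change -1.99, adjusted p = 0.0107). The other leave-one-out fits in edgeR gave 0.486 to 0.825. EFNA3 and EPHB1 were at 1.505 to 5.10 CPM, and EPHA8 had at most 1 count in any library and was not tested.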
